A study of Homo sapiens with 8 samples.

Results

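The gene set described here comprised 32 genes of DNA replication and S phase, the part of the cell cycle in which the genome is copied. Members were taken by symbol from a list covering origin licensing, helicase activation, polymerases and fork proteins, nucleotide supply, chromatin copying, and the E2F and cyclin E regulators. All 32 were among the 36779 genes of the deposited count tables and among the 17869 genes that passed the filter on low counts (at least 1 CPM in 2 libraries, where CPM is the count scaled to library size). The members were spread over 17 chromosomes.

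The study sequenced ribosome-depleted RNA of PC3 and DU145, established lines grown from metastases of human prostate cancer. Each line was transfected with a plasmid overexpressing circ0003553, a circular RNA, or circ0004592, another circular RNA, and each of these plasmids had its own library of cells given a negative control plasmid. The labels call the circ0003553 experiment RCAN3 and the circ0004592 experiment STK3, so that each line gave 4 libraries: the RCAN3-arm control, circ0003553, the STK3-arm control and circ0004592. All 8 libraries thus came from transfected cells; no untransfected cells were included, each line stands for itself alone, and each circular RNA was represented by 1 library per line.

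DNA replication is prepared in G1, when the origin recognition complex, CDC6 and CDT1 load the MCM2 to MCM7 helicase onto DNA, and is started when CDC45, the GINS complex and MCM10 turn that helicase on. Polymerases, the PCNA clamp and its loader then copy the strands, while ribonucleotide reductase, thymidylate synthase and thymidine kinase supply nucleotides. Many of these genes are activated together at the G1 to S transition by E2F transcription factors, which the retinoblastoma protein RB holds back until cyclin-dependent kinases, among them the cyclin E kinase, phosphorylate it. DU145 is known to lack functional RB protein.

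Total counts ran from 33444940 to 49926342 per library, and the lowest count of any member in any library was 71, so that no member was near the counting floor. The epithelial keratins KRT8 and KRT18 were present in every library, at 1874 to 2512 and 815 to 1097 CPM in DU145 and at 355 to 434 and 128 to 166 CPM in PC3. Markers of blood cells were at or near 0, with PTPRC and LYZ at 0.0601 CPM or less. COL1A1, a collagen of stromal cells, was at 1.79 to 2.77 CPM in DU145 against 21.7 to 28.0 CPM in PC3, and PECAM1, a marker of endothelial cells, at 0.213 to 0.282 and 5.50 to 6.09 CPM. VWF, another endothelial marker, stayed at 0.174 CPM or less in every library, and its values overlapped between the lines. CDH1, the epithelial cadherin, was at 40.9 to 64.0 CPM in DU145 against 0.723 to 1.18 CPM in PC3. The part of these markers in the differences between the lines was not tested. Gene counts do not separate a circular RNA from the linear transcripts of its host gene, so the overexpression itself was not measured here.

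As the members are known as E2F targets as a class, the promoter sequences were read for E2F words before the expression values are given. RefSeq promoters (GRCh38.p14, 250 bases before to 50 after the first listed start of a gene) were matched for 29 of the 32 members; MCM4, MCM5 and CCNE2 had no entry. The words searched on both strands were TTTCCCGC, TTTCGCGC, TTTGCCGC and TTTGGCGC, written here as the E2F words, and CCAAT, the word of the CCAAT box. A further word, TTTGGCGG, which also belongs to the E2F family of sites, was added after the promoters had been read, and it overlapped an E2F word in 0 members. Windows of 6 members with large or instructive patterns are printed here, from 120 bases before the start through the first 30 transcribed bases, 5′ to 3′ on the gene's strand. Capitals mark the E2F words and TTTGGCGG. MCM10 (chr10:13161438-13161587, plus strand) and GINS2 (chr16:85688925-85689074, minus strand) are shown because they differed most between the lines, CDT1 (chr16:88803669-88803818, plus strand) and CDC6 (chr17:40287759-40287908, plus strand) because they hold both kinds of word, MCM2 (chr3:127598291-127598440, plus strand) because its matches on opposite strands interlock, and CCNE1 (chr19:29811871-29812020, plus strand) because it holds neither.
MCM10: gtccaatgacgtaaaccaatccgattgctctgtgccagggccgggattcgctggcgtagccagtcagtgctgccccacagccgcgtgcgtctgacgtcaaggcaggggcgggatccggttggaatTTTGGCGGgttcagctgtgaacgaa
GINS2: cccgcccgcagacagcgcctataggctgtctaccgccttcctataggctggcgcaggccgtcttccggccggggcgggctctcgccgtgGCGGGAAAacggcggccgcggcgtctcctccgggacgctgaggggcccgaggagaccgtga
CDT1: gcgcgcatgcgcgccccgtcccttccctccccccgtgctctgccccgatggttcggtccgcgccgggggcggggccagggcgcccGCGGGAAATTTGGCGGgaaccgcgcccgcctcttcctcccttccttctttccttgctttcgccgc
CDC6: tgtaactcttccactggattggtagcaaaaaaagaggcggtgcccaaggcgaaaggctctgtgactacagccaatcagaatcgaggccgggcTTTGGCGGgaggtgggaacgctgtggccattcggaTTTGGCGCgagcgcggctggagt
MCM2: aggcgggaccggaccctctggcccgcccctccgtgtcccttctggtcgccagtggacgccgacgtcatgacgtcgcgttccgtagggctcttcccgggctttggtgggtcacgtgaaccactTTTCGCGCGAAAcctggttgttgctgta
CCNE1: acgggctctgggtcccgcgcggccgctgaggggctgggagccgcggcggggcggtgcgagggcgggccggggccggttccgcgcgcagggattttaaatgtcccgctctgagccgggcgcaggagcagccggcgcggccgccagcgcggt

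Of the 29 matched members, 18 (62.1%) held at least 1 E2F word, against 3.33% of all 27305 promoters in the table and 5.21% of the 10905 promoters of tested genes. TTTGGCGG was found in 5 members (17.2%), against 0.681% of all promoters and 1.05% of those of tested genes. As this word was added after these promoters had been read, its share in the members is no independent support. In all, 21 members held either kind. Of the 25 E2F matches, 20 lay between 100 bases before and 50 bases after the start. CCAAT was found in 18 members (62.1%), against 35.7% of all promoters. In CDT1, TTTCCCGC on the opposite strand and TTTGGCGG stood next to each other, 35 to 20 bases before the start. These are matches of letters and not measured binding sites, and a window without a match says only that these letters are not in it.

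**Figure D1:**
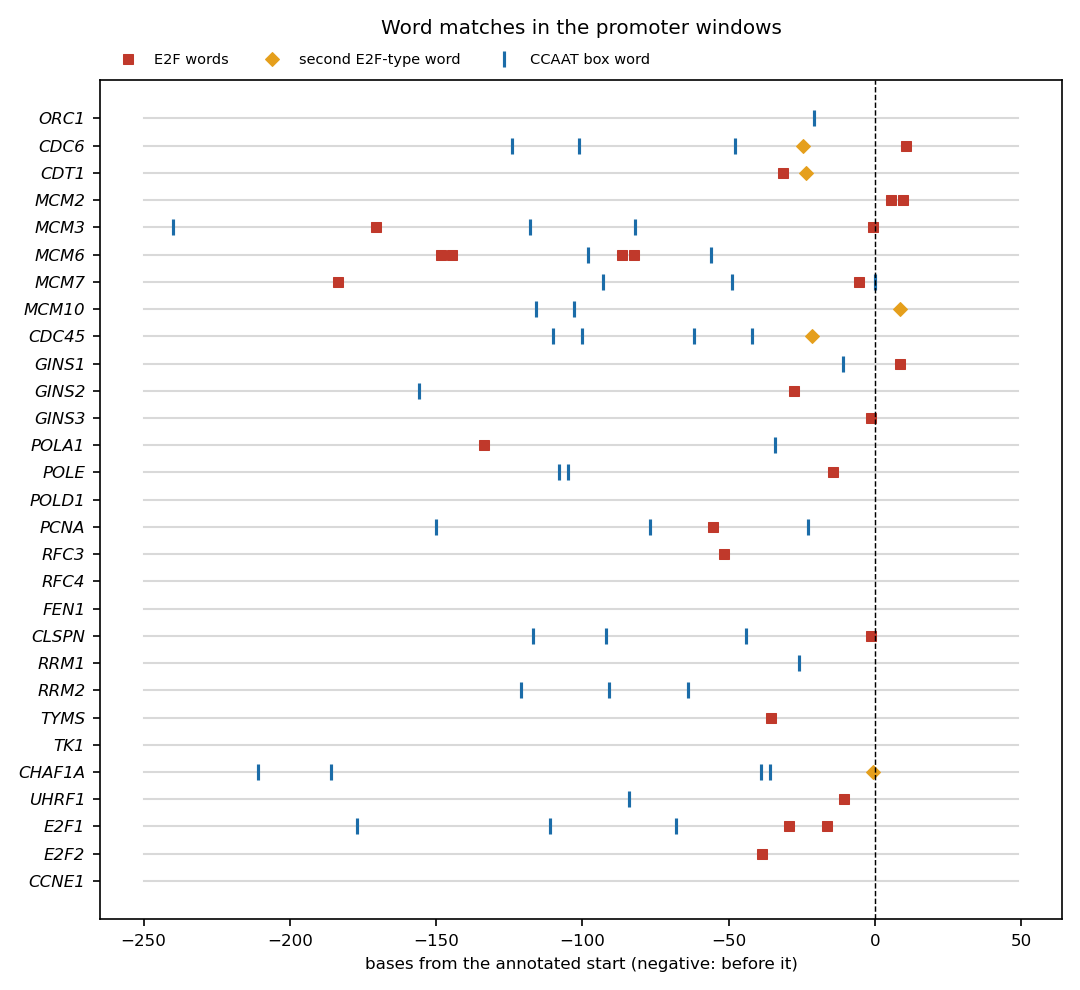
Matches of the E2F words (squares), TTTGGCGG (diamonds, labelled as the second E2F-type word) and CCAAT (bars) in the promoter windows of the 29 matched members, plotted by distance in bases from the annotated start. Most E2F matches sit close to the start, 20 of 25 within 100 bases before to 50 after it, and 8 members hold neither kind of E2F word.

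The first comparison asked how the 2 lines differed, PC3 against DU145. As a whole, the replication genes were lower in PC3. Their summed level was 4277, 4019, 4329 and 4594 CPM in the 4 DU145 libraries (mean 4305 ± 236, SD, n = 4) and 1596, 1701, 1546 and 1600 CPM in the 4 PC3 libraries (mean 1611 ± 65.0, SD, n = 4), a ratio of 2.67. Here and below the 4 values of a line are given in the order RCAN3-arm control, circ0003553, STK3-arm control, circ0004592. The 2 lines did not overlap in this sum. In bulk RNA a smaller share of cells in S phase and less RNA of these genes per cell cannot be told apart, and culture density and growth rate are not given in the sources used here.

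Gene by gene, 30 of the 32 members were lower in PC3 in edgeR's quasi-likelihood test over all 8 libraries (Benjamini-Hochberg adjusted p under 0.05 over all genes tested), and 0 were higher, every member having a value below 0. Among all tested genes 37.8% were lower and 39.0% higher in the same test, so a call was common in this comparison and its direction was evenly divided over all tested genes. The median member differed by -1.31 on the log2 scale, 2.48-fold lower in PC3, while the median of all tested genes was 0.01. The 22 largest differences exceeded 2-fold and 7 exceeded 4-fold. No PC3 library reached the lowest DU145 library for 30 members, a pattern seen for 36.0% of all tested genes (37.9% for the opposite direction), and GINS1 and POLD1 were the 2 members whose values overlapped. The labels do not say whether the libraries of a line came from separate cultures, so the p-values measure the spread between these libraries, which may be technical.

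**Figure D2:**
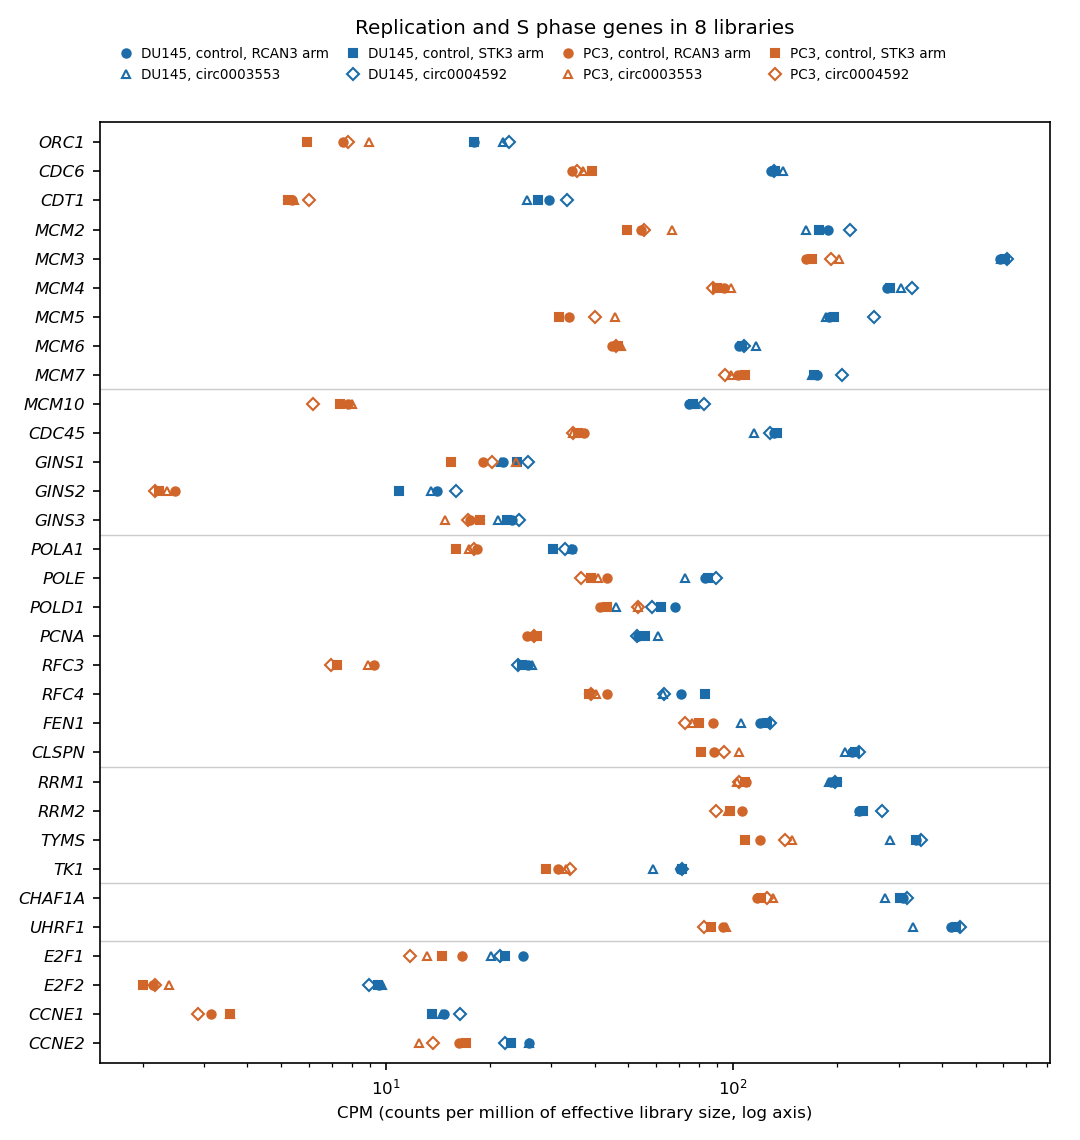
Level of each of the 32 members in each of the 8 libraries, in CPM on a log axis, with members ordered by role and roles divided by grey lines. Blue marks are DU145 and orange marks PC3, filled marks are control plasmids and open marks circular RNA plasmids; the colours are apart for every member except GINS1 and POLD1.

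Among the licensing genes, all 9 were lower in PC3, with a median of -1.74 on the log2 scale. MCM5, a subunit of the MCM2 to MCM7 helicase (chr22:35400063-35425430 in the deposited files), was at 189, 185, 195 and 254 CPM in DU145 and 33.7, 45.8, 31.6 and 40.0 CPM in PC3. The lines were far apart, and within PC3 both circular RNA libraries were above both controls. The log2 difference was -2.46 ± 0.13 (SE), 5.52-fold lower in PC3 (edgeR adjusted p = 2.96e-06).

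CDT1, which loads the helicase together with CDC6, was at 29.5, 25.5, 27.4 and 33.4 CPM in DU145 and 5.37, 5.45, 5.25 and 6.01 CPM in PC3. Its log2 difference was -2.40 ± 0.09 (5.28-fold lower, edgeR adjusted p = 7.39e-07), and the 4 PC3 values lay within a narrow range. CDC6 itself, the ATPase that recruits the helicase to the origin, was at 129, 140, 132 and 131 CPM in DU145 and 34.3, 37.1, 39.3 and 35.5 CPM in PC3, a log2 difference of -1.88 ± 0.08 (3.68-fold lower, edgeR adjusted p = 1.07e-06). ORC1, the subunit of the origin recognition complex whose level follows the cell cycle, was at 17.9 to 22.7 CPM in DU145 against 5.92 to 8.97 CPM in PC3, with a log2 difference of -1.43.

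The helicase subunits did not differ by one factor. MCM3 was at 586, 590, 606 and 615 CPM in DU145 and 162, 202, 169 and 192 CPM in PC3 (log2 difference -1.74 ± 0.09, 3.35-fold lower, edgeR adjusted p = 3.26e-06). MCM2 was at 188, 162, 177 and 218 CPM in DU145 and 54.4, 66.7, 49.4 and 55.4 CPM in PC3 (-1.74 ± 0.13, 3.33-fold lower, edgeR adjusted p = 1.41e-05). MCM4 was at 279, 305, 284 and 327 CPM in DU145 and 94.2, 98.5, 90.1 and 87.5 CPM in PC3 (-1.70 ± 0.09, 3.26-fold lower, edgeR adjusted p = 2.19e-06). These 3 subunits thus differed by nearly the same factor, with no overlap between lines. MCM6 differed by -1.25 and MCM7 by -0.84 on the log2 scale, so that the subunits ranged from 1.79-fold (MCM7) to 5.52-fold (MCM5) lower in PC3.

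The subunits of this complex are known to assemble in equal numbers, and their RNA levels can be compared per length. On the deposited RPKM scale (reads scaled to the length of the exon model and to library size, in 1 table per arm), MCM3 was the most abundant subunit in every library, at 163.6 to 168.1 RPKM in DU145 and 43.3 to 54.6 RPKM in PC3. MCM5 was at 26.2 to 33.8 RPKM in DU145 and 4.31 to 6.17 RPKM in PC3, where it was the lowest subunit in all 4 libraries. MCM3 over MCM5 was 4.86 to 6.41 in DU145 and 8.85 to 10.8 in PC3, and MCM7 over MCM5 was 1.36 to 1.55 in DU145 and 3.61 to 5.71 in PC3. The 2 lines did not overlap in either ratio. These are RNA ratios from gene-level exon models, whose length for MCM5 was 7338 bases, and a transcript shorter than its model is understated on this scale.

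Among the 5 genes of helicase activation, 4 were lower in PC3, with a median of -1.85. MCM10, which stabilises the helicase at origin firing (chr10:13161554-13211104), was the member with the largest difference. It was at 74.9, 78.0, 76.5 and 82.8 CPM in DU145 and 7.79, 8.01, 7.39 and 6.19 CPM in PC3. Its log2 difference was -3.43 ± 0.10, 10.8-fold lower in PC3 (edgeR adjusted p = 3.4e-07). GINS2, a subunit of the 4-part GINS complex that joins the active helicase, was at 14.1, 13.5, 10.9 and 15.9 CPM in DU145 and 2.48, 2.35, 2.23 and 2.16 CPM in PC3 (log2 difference -2.56 ± 0.13, 5.90-fold lower, edgeR adjusted p = 2.3e-06). CDC45, the third partner of the active helicase, was at 131, 115, 134 and 128 CPM in DU145 and 37.3, 34.6, 35.8 and 34.6 CPM in PC3 (-1.85 ± 0.08, 3.61-fold lower, edgeR adjusted p = 1.19e-06).

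The GINS subunits were unlike each other. GINS1 (chr20:25407727-25452628) was at 21.7, 21.5, 23.8 and 25.7 CPM in DU145 and 19.1, 23.8, 15.5 and 20.2 CPM in PC3; the lines overlapped, and the log2 difference of -0.27 ± 0.13 did not pass (edgeR adjusted p = 0.0962). GINS3 was at 21.1 to 24.2 CPM in DU145 against 14.9 to 18.7 CPM in PC3, a log2 difference of -0.43 that passed. GINS4, taken from the wider list of origin and helicase genes, differed by -1.51. Within 1 complex, the fitted differences over all libraries were thus 1.20-fold (GINS1), 1.35-fold (GINS3) and 5.90-fold (GINS2) lower in PC3, the first of these not past the threshold.

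Of the 8 polymerase and fork genes 7 were lower in PC3, with a median of -0.995. RFC3, a subunit of the clamp loader that places PCNA on DNA, differed most, with 25.8, 26.5, 24.7 and 24.1 CPM in DU145 and 9.26, 8.88, 7.22 and 6.97 CPM in PC3 (log2 difference -1.67 ± 0.09, 3.17-fold lower, edgeR adjusted p = 3.3e-06). RFC4, a subunit of the same loader, differed by -0.81. PCNA, the sliding clamp, was at 53.1 to 60.9 CPM in DU145 against 25.5 to 27.2 CPM in PC3, a log2 difference of -1.08. CLSPN, the checkpoint mediator at the fork, differed by -1.29, POLE, the catalytic subunit of the leading strand polymerase, by -1.06, POLA1, the catalytic subunit of the priming polymerase, by -0.93, and FEN1, the nuclease that trims Okazaki fragments, by -0.61.

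POLD1, the catalytic subunit of the lagging strand polymerase (chr19:50384204-50418018), was the member outside this pattern. It was at 68.2, 46.1, 62.1 and 58.3 CPM in DU145 and 41.4, 53.2, 43.3 and 53.3 CPM in PC3. The circ0003553 library of DU145 was low among its line and both circular RNA libraries of PC3 were high among theirs, so that the lines overlapped. The log2 difference over all libraries was -0.31 ± 0.16 (edgeR adjusted p = 0.118). Between the 4 control libraries alone it was -0.67 (edgeR adjusted p = 8.5e-09).

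The 4 nucleotide supply genes were all lower in PC3, with a median of -1.22. TYMS, thymidylate synthase (chr18:657604-673578), was at 337, 283, 336 and 348 CPM in DU145 and 119, 148, 109 and 141 CPM in PC3 (log2 difference -1.36 ± 0.13, 2.56-fold lower, edgeR adjusted p = 5.3e-05). Its 465 exon bases shared with ENOSF1 on the opposite strand, of 2470, leave part of its count uncertain, as the strand setting of the counting is not given in the sources used here; ENOSF1 was at a mean of 199 CPM in DU145 and 90.6 CPM in PC3. RRM2, the S phase subunit of ribonucleotide reductase, differed by -1.33, its partner RRM1 by -0.89, and TK1, thymidine kinase, by -1.11. In RPKM, TYMS stood beside MCM3 at the top of the members in both lines, with means of 133 in DU145 and 51.8 in PC3, against 166 and 49.2 for MCM3; within PC3 the ranges of these 2 overlapped.

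Both chromatin copying genes were lower in PC3. UHRF1, which carries DNA methylation through replication, was at 425, 330, 439 and 451 CPM in DU145 and 93.8, 95.5, 86.7 and 82.6 CPM in PC3 (log2 difference -2.20 ± 0.13, 4.61-fold lower, edgeR adjusted p = 3.98e-06). CHAF1A, the large subunit of the histone chaperone CAF-1, was at 274 to 317 CPM in DU145 against 117 to 131 CPM in PC3, a log2 difference of -1.30.

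The 4 regulators were lower in PC3 to unlike degrees. CCNE1, a cyclin E, was at 14.7, 14.5, 13.6 and 16.4 CPM in DU145 and 3.15, 3.55, 3.55 and 2.89 CPM in PC3 (log2 difference -2.18 ± 0.13, 4.55-fold lower, edgeR adjusted p = 4.49e-06). E2F2, an activating E2F factor, was at 9.58, 9.73, 9.50 and 8.97 CPM in DU145 and 2.14, 2.38, 2.00 and 2.16 CPM in PC3 (-2.14 ± 0.12, 4.40-fold lower, edgeR adjusted p = 4.5e-06), and was the lowest member in RPKM in both lines. Their relatives differed less: E2F1 by -0.68 and CCNE2, the other cyclin E, by -0.73. CCNE2 shares 1629 of its 4397 exon bases with INTS8 on the opposite strand, which was at 30.4 CPM in DU145 and 33.2 CPM in PC3 on average, so reads of INTS8 could stand in the count of CCNE2.

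Members with and without a promoter word differed between the lines over overlapping ranges. The 21 members with an E2F word or TTTGGCGG had a median log2 difference of -1.36 (range -3.43 to -0.27). The 8 with neither had a median of -0.996 (range -2.18 to -0.31). MCM10, CDC45 and CHAF1A stood in the first group only through TTTGGCGG, the word added after the promoters had been read. MCM10 had the largest difference of all members, and the medians without that word were not compared. CCNE1, whose window is printed above without a capital letter, was 4.55-fold lower in PC3, and GINS1, which holds an E2F word, was a member that did not pass. POLD1, the other member that did not pass, holds neither kind of word.

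The 4 control libraries alone, where no circular RNA was expressed from a plasmid, gave all 32 members lower in PC3 (edgeR adjusted p under 0.05), against 40.9% of all tested genes lower and 41.6% higher. GINS1 then differed by -0.44 (edgeR adjusted p = 0.00022). MCM10 differed by -3.36 and MCM5 by -2.60, values close to those over all libraries. These libraries are part of the comparison above and add no independent samples.

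**Figure D3:**
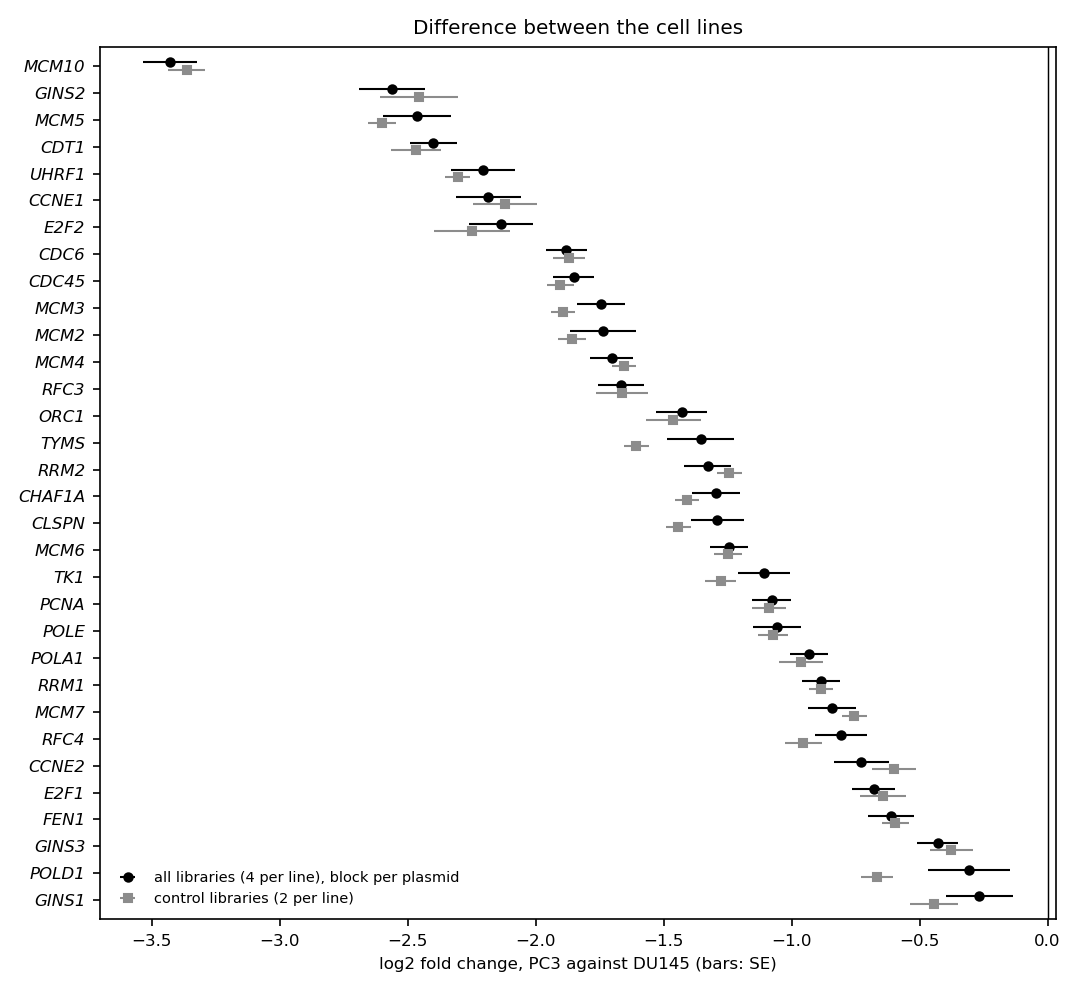
Log2 fold change of each member, PC3 against DU145, over all 8 libraries (black circles) and over the 4 control libraries (grey squares), with SE bars worked back from the test. Every value is below 0, from -3.43 for MCM10 to -0.27 for GINS1 over all libraries, and POLD1 moves most between the 2 sets of libraries.

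The wider pathway was described with lists of other genes of the same processes. In this test 37.8% of all tested genes were lower and 39.0% higher in PC3, shares to be set beside the counts of each list below. Of 18 other origin and helicase genes 11 were lower and 4 higher in PC3 (median -0.44), among them GMNN, the inhibitor of CDT1 (-1.71), and MCMBP, an MCM-binding protein (-1.51), against RECQL4, a helicase of replication initiation (1.79). Of 26 other polymerase, clamp loader and fork genes 18 were lower and 5 higher (median -0.62), with ATAD5, which unloads PCNA (-2.57), PRIM1, the primase (-2.15), TIPIN, the partner of TIMELESS at the fork (-1.87), and RNASEH2B, an RNase H2 subunit (-1.85), furthest from 0. Of 16 other nucleotide supply genes 11 were lower and 3 higher (median -0.63), among them SHMT1, serine hydroxymethyltransferase (-2.05), DUT, the dUTPase (-1.66), and DCTPP1, a nucleotide pyrophosphatase (-0.99).

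Of 12 other chromatin copying genes 8 were lower and 1 higher (median -0.70), with HELLS, a chromatin remodeller (-2.39), SLBP, the histone stem-loop binding protein (-1.65), and MMS22L (-1.58) lower, and TONSL, the partner of MMS22L, higher (1.89). MMS22L and TONSL, known to work as a pair, thus lay on opposite sides of 0. Of the 12 genes of the checkpoint list 9 were lower and 1 higher (median -0.71). CDCA7, placed in this list though not itself a checkpoint gene, was lower (-3.15). CHEK1, the checkpoint kinase (-1.58), and RAD1 (-1.20) were also lower and RAD9A (1.25) higher. RAD1 and RAD9A encode subunits of the same checkpoint clamp.

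The RB and E2F network was mixed, with 10 of 16 genes lower and 3 higher (median -0.36). MYBL2, an E2F target that drives late cell cycle genes, was 4.91-fold lower in PC3 (-2.30), RBL1, the RB relative p107, and TFDP1, the E2F partner DP1, differed by -1.15 and -1.08, and E2F7, a repressor E2F, was higher (1.06). RB1 itself was at 12.3 to 14.5 CPM in DU145 against 9.32 to 10.8 CPM in PC3, a log2 difference of -0.39 (edgeR adjusted p = 0.00475); its RNA level says nothing of its protein. Of 16 G1 to S cyclins, kinases and inhibitors 6 were higher and 7 lower (median 0.09), against 39.0% and 37.8% of all tested genes. CDKN2B, the CDK4 and CDK6 inhibitor p15, was at 13.7 to 18.4 CPM in DU145 against 155 to 316 CPM in PC3 (log2 difference 3.81, 14.1-fold higher in PC3), and CDKN2D, the inhibitor p19, was also higher (1.09). CDKN2A was at 136 to 160 CPM in DU145 against 73.6 to 89.6 CPM in PC3 (-0.85), CDKN1A, the inhibitor p21, differed by -1.38 and CCNA2, the cyclin of S phase, by -1.31.

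The 30 mitosis and G2/M genes, which act after replication, gave 27 lower in PC3 and all 30 values below 0, with a median of -1.05, beside -1.31 for the members. KIF20A (-2.49), KIF23 (-2.26), TOP2A (-2.22) and AURKB (-2.09), genes of the spindle, of cell division and of chromosome condensation, were furthest from 0. The mitosis genes were thus lower in PC3 as well, and no test of the difference between the 2 lists was made.

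**Figure D4:**
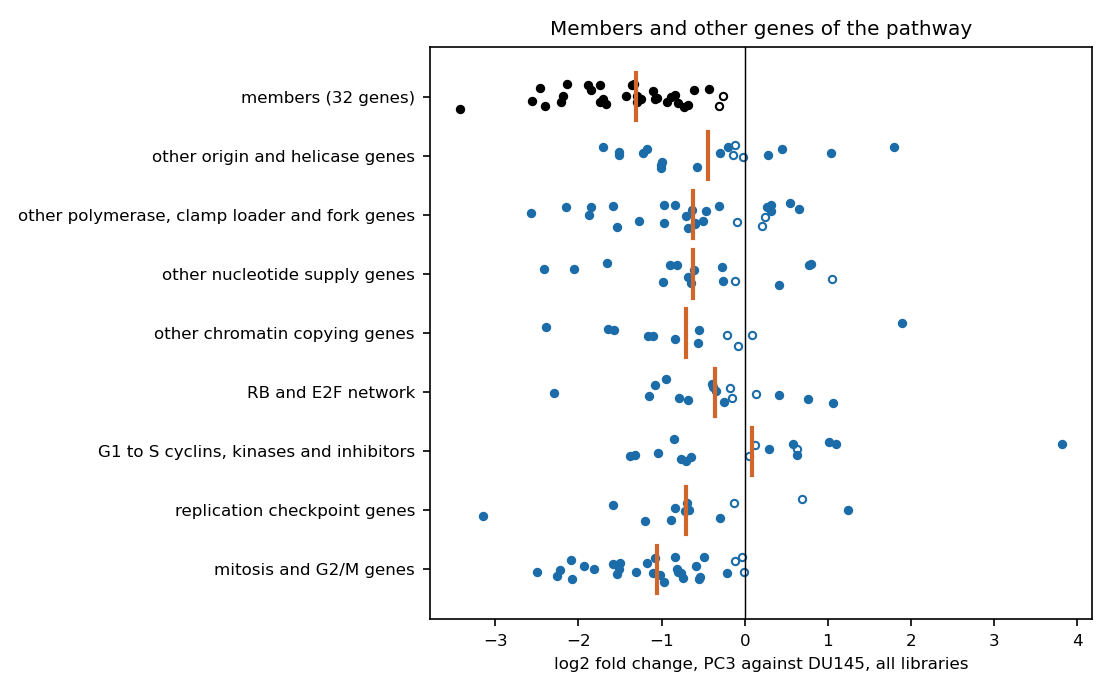
Log2 fold change, PC3 against DU145 over all libraries, for the 32 members (black) and the other genes of 8 lists (blue); filled points passed the test, open points did not, and orange bars are medians. The median is -1.31 for the members, -1.05 for the mitosis and G2/M genes and 0.09 for the G1 to S cyclins, kinases and inhibitors, where CDKN2B stands at 3.81.

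The next comparisons asked what each circular RNA plasmid did to these genes within a line. Set against the control of its own arm, 1 library each and therefore without a test, the changes were small beside the difference between lines. In PC3, 12 members were higher with both plasmids, 11 lower with both and 9 mixed, with medians of 0.05 for circ0003553 and -0.04 for circ0004592 on the log2 scale and a largest change of 0.44 (MCM5, circ0003553). In DU145, 6 were higher with both, 5 lower with both and 21 mixed, with medians of -0.04 and 0.05 and a largest change of 0.56, the fall of POLD1 with circ0003553. The shares of all tested genes with these patterns were not counted, so these counts are not read as particular to the members. The 2 controls of a line differed from each other by a median absolute log2 of 0.11 in PC3 (up to 0.36, RFC3) and 0.05 in DU145 (up to 0.36, GINS2).

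**Figure D5:**
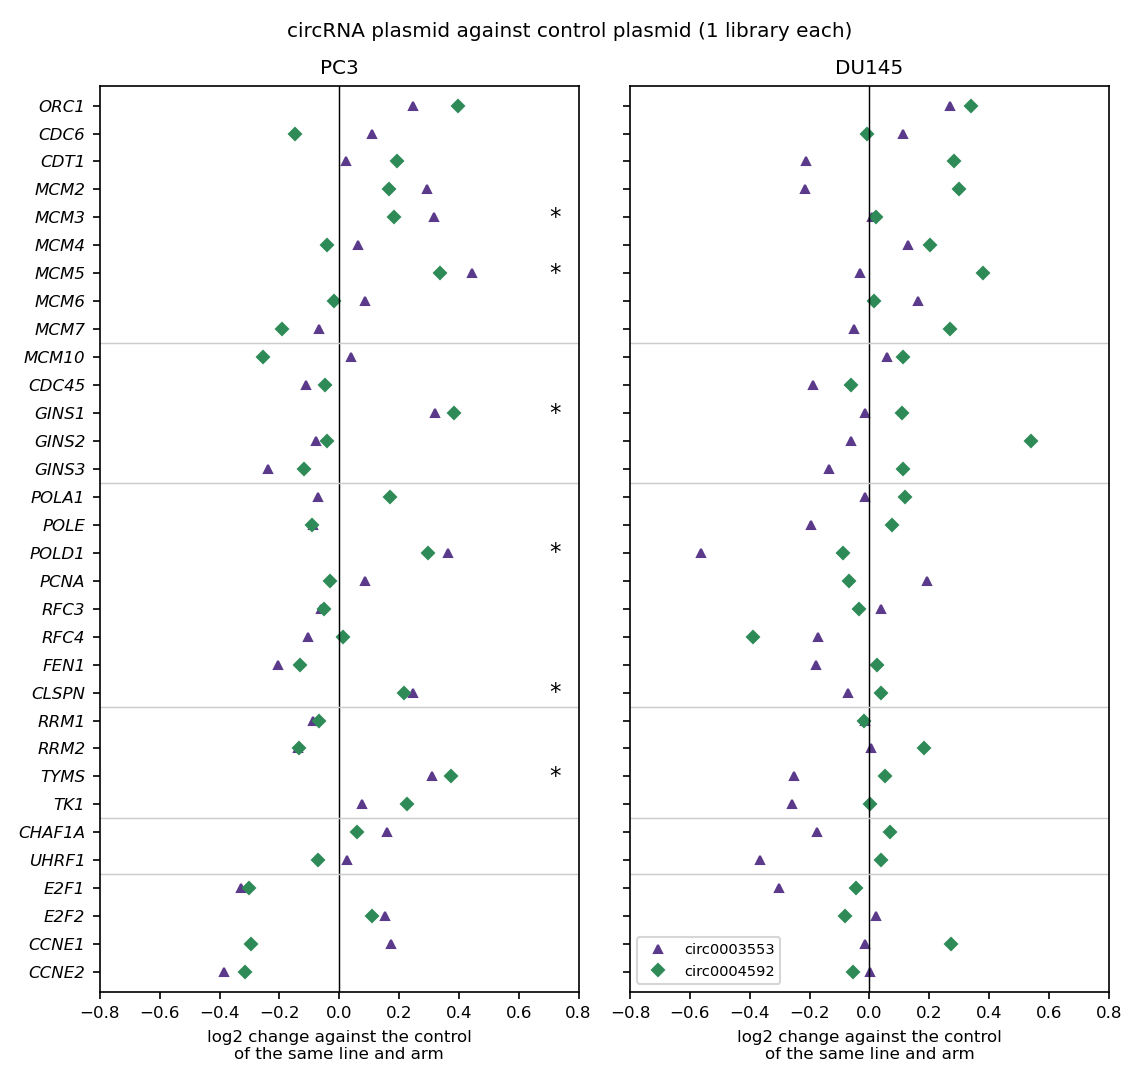
Log2 change of each member with circ0003553 (triangles) and circ0004592 (diamonds) against the control library of the same line and arm, 1 library each, for PC3 (left) and DU145 (right). Stars mark the 6 members higher in the test of both circular RNAs against both controls in PC3; in DU145 no member passed that test.

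In PC3, the 2 circular RNA libraries, which carry different circular RNAs and were treated as replicates, were compared with the 2 controls. Of the 32 members 6 were higher and 0 lower (edgeR adjusted p under 0.05), against 11.2% of all tested genes higher and 9.19% lower; at an unadjusted p under 0.05 there were 9 higher and 2 lower, DESeq2 also gave 6 higher and 0 lower, and limma on the deposited RPKM gave 2 higher and 0 lower. The median member changed by 0.05. The 6 were MCM3, MCM5, GINS1, POLD1, CLSPN and TYMS: 2 helicase subunits, 1 helicase activation gene, 2 fork genes and 1 nucleotide supply gene. The libraries did not overlap for 12 members that were higher and 8 that were lower with circular RNA, patterns seen for 25.1% and 38.2% of all tested genes.

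TYMS rose from 119 and 109 CPM in the RCAN3-arm and STK3-arm controls to 148 CPM with circ0003553 and 141 CPM with circ0004592, a log2 change of 0.40 ± 0.09 (edgeR adjusted p = 0.00586). ENOSF1, which overlaps it, was at 86.4 and 81.8 CPM in the same controls and at 96.4 and 97.9 CPM with circular RNA. MCM5 rose from 33.7 and 31.6 CPM to 45.8 and 40.0 CPM, a log2 change of 0.45 ± 0.12 (edgeR adjusted p = 0.0138). Its highest PC3 value, 45.8 CPM, was still far under the lowest DU145 value, 185 CPM.

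POLD1 rose from 41.4 and 43.3 CPM to 53.2 and 53.3 CPM (0.38 ± 0.10, edgeR adjusted p = 0.0125), which brought both circular RNA libraries of PC3 above the circ0003553 library of DU145. GINS1 rose from 19.1 and 15.5 CPM to 23.8 and 20.2 CPM (0.40 ± 0.12, edgeR adjusted p = 0.0275). MCM3 rose from 162 and 169 CPM to 202 and 192 CPM (0.30 ± 0.08, edgeR adjusted p = 0.0126), and CLSPN from 88.0 and 81.0 CPM to 104 and 94.1 CPM (0.29 ± 0.09, edgeR adjusted p = 0.025). In all 6 genes both circular RNA libraries lay above both controls.

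This count rested on single libraries. It fell to 0 without the circ0003553 library of PC3, to 0 without the STK3-arm control of PC3 and to 3 without its RCAN3-arm control, and it was 10 without the circ0004592 library of DU145, which enters this comparison only through the spread. The number lower rose above 0 without either circular RNA library of DU145. The numbers among all tested genes moved the same way in each of these fits, which left 1 library in a group. The share of counts from the mitochondrial genome was 7.97% and 7.75% in the PC3 controls and 4.94% and 6.08% in the circular RNA libraries, and its part in the result was not tested.

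Each plasmid was also set against both controls of its line, with a lone library assumed to vary as the controls did, so that a call describes that library and has no replicate of its own. In PC3, circ0003553 gave 9 members higher and 1 lower (15.6% and 12.6% of all tested genes): MCM5 (0.55), GINS1 (0.52), ORC1 (0.47), TYMS (0.44), MCM2 (0.42), POLD1 (0.39), CLSPN (0.36), MCM3 (0.34) and CHAF1A (0.20) rose and CCNE2 fell (-0.36). With circ0004592, 6 rose and 1 fell (13.2% and 11.7% of all tested genes): POLD1 (0.38), TYMS (0.35), MCM5 (0.34), MCM3 (0.26), TK1 (0.22) and CLSPN (0.20) rose and E2F1 fell (-0.35). The 2 comparisons share their control libraries. With limma on RPKM 5 rose with circ0003553 and 2 with circ0004592, and with DESeq2 7 and 4. With circ0004592, TK1 passed in 1 and CLSPN in 6 of 12 alternatives. The 1 that fell with circ0004592 became 0 without the RCAN3-arm control of PC3 and 3 without its STK3-arm control.

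In DU145, 0 members were higher and 0 lower in edgeR's test of both circular RNAs against both controls, where 0.532% and 0.515% of all tested genes passed. At an unadjusted p under 0.05 there were 3 members, ORC1 (0.30), RFC4 (-0.29) and POLD1 (-0.33), and DESeq2 and limma on the deposited RPKM also gave 0. The libraries did not overlap for 4 members that were higher and 4 that were lower, against 19.6% and 19.0% of all tested genes. Without the circ0003553 library members passed in both directions, and without the circ0004592 library only as lower. The numbers among all tested genes rose in both cases, and each fit left 1 library in a group.

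Against both controls of DU145, with circ0003553, 7 members fell and 0 rose (6.30% and 4.24% of all tested genes; 4 members were higher at an unadjusted p under 0.05, and 0 adjusted with DESeq2 or limma): POLD1 (-0.50), UHRF1 (-0.39), RFC4 (-0.29), TK1 (-0.27), TYMS (-0.25), FEN1 (-0.22) and CDC45 (-0.20). With circ0004592, 5 rose and 1 fell (5.24% and 4.65% of all tested genes): MCM5 (0.39), MCM2 and MCM7 (both 0.24), MCM4 (0.20) and RRM2 (0.19) rose and RFC4 fell (-0.29). With DESeq2 the 7 that fell with circ0003553 became 3 and the 5 that rose with circ0004592 became 4, and limma on RPKM gave 0 members in either direction with either plasmid. In these 2 comparisons limma passed no tested gene of any kind, so its result is not particular to the members. The 2 plasmids were not tested against each other. Of the 9 licensing genes 8 were above their own-arm control with circ0004592 (median 0.27) and 5 with circ0003553 (median 0.01). In PC3 the numbers went the other way, 5 with circ0004592 (median 0.17) and 8 with circ0003553 (median 0.11). Each value rests on 1 library and was not tested, and the share of all tested genes above their own-arm control was not counted. These counts ranged from 2 to 10 for the 7 that fell and from 1 to 6 for the 5 that rose when single libraries were left out: 3 fell without the RCAN3-arm control of DU145 and 2 without its STK3-arm control, and 3 and 1 rose without the same libraries.

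A direct test of whether the circular RNA effect differed between the lines passed for 2 members, both with a larger value in PC3 (edgeR adjusted p under 0.05; 7.08% of all tested genes higher and 4.90% lower; 7 members higher and 0 lower at an unadjusted p under 0.05, and DESeq2 and limma also gave 2 and 0). For POLD1 the difference of effects was 0.71 ± 0.14 on the log2 scale (edgeR adjusted p = 0.00248), from an effect of 0.38 in PC3 and -0.33 in DU145. For TYMS it was 0.50 ± 0.13 (edgeR adjusted p = 0.0188), from 0.40 in PC3 and -0.10 in DU145, which did not pass. ENOSF1, which shares exon bases with TYMS, was at 207, 180, 203 and 206 CPM in DU145. In each arm of both lines ENOSF1 moved in the same direction as TYMS, and its part in the TYMS count was not tested. Without the circ0004592 library of DU145 the number was 10, and it was 1 without any single control, without the circ0003553 library of PC3 or without the circ0004592 library of PC3. Without the circ0003553 library of DU145, members passed in both directions. The numbers among all tested genes moved the same way in each of these fits, which left 1 library in a group.

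Around the members, the largest circular RNA changes in PC3 lay outside the replication machinery proper. SAMHD1, which degrades deoxynucleotides and is known as an interferon-induced gene (chr20:36890229-36951843), was at 17.6 and 18.6 CPM in the PC3 controls, 170 CPM with circ0003553 and 164 CPM with circ0004592 (log2 change 3.26 ± 0.09, edgeR adjusted p = 1.25e-14). In DU145 it was at 25.3 to 28.9 CPM in all 4 libraries. ATRIP, the partner of the ATR kinase, rose by 1.66, but it shares 1835 of its 5431 exon bases with TREX1 on the same strand, and TREX1 was at 8.74 and 8.15 CPM in the controls and 35.0 and 36.7 CPM with circular RNA.

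Among the 16 G1 to S genes 5 rose and 1 fell in PC3. In the same test 11.2% of all tested genes were higher and 9.19% lower, and the counts of every list in this paragraph stand beside these shares. CCND3 (1.62) and CCND1 (0.70), the D cyclins, rose, as did the inhibitor CDKN1A (0.69), while the inhibitor CDKN2B fell from 316 and 314 CPM to 155 and 171 CPM (-0.90); CDKN2B also fell in DU145 (-0.40, edgeR adjusted p = 0.0404), a call lost in 8 of 14 alternatives, with adjusted p up to 0.43. Elsewhere 4 polymerase and fork genes rose, TIPIN (0.59), RPA2 (0.32), POLA2 (0.32) and TIMELESS (0.27), and the origin and helicase list had ORC4 (0.41) alone. The chromatin list had 2 higher, HELLS (0.36) and CHAF1B (0.27), the RB and E2F network had 2 higher, LIN52 (0.83) and E2F6 (0.32), and 1 lower, E2F7 (-0.31), and the checkpoint list had RAD9A (0.76) beside ATRIP and CDCA7 lower (-0.44). The nucleotide list had GART (0.30) beside SAMHD1, with DTYMK (-0.33) and IMPDH2 (-0.27) lower. Of the 30 mitosis and G2/M genes 5 rose and 2 fell, among them BUB1 (0.70), NDC80 (0.46), KIF11 (0.38) and AURKB (-0.34). Of these smaller changes, CHAF1B passed in 2, POLA2 in 4, TIMELESS and E2F6 in 5 and HELLS in 8 of 14 alternatives.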

How the data were processed

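The authors' deposited tables held read counts per gene and RPKM (reads scaled to gene length and library size) for 8 stranded, ribosome-depleted libraries. The submitters' processing notes name Trimmomatic 0.36, featureCounts of Subread 1.5.1, edgeR 3.12.1 and build hg38; the aligner, annotation release, strand setting and use of molecular identifiers are not given in the sources used here. Between 64.9% and 66.1% of the counts from 1 to 20 were even, so part of the read pairs may count as 2.

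Counts were tested with edgeR 4.0.16 (TMM scaling, quasi-likelihood test, Benjamini-Hochberg adjustment over 17869 genes with at least 1 CPM in 2 libraries), and CPM use TMM-scaled library sizes. The difference between lines was fitted on all 8 libraries with a block for each plasmid and arm. Both circular RNAs of a line against its controls, and the difference of that effect between lines, were fitted in 4 groups. Single plasmids and the 4 controls were fitted in 6 groups, where a lone library takes its spread from the controls. SEs were worked back from the test's F and can be too small. DESeq2 1.42.0, limma 3.58.1 on log2(RPKM + 0.1), other filters, an arm block and leaving out each library were alternatives. Fits were tested on simulated data.

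The members and lists were chosen with earlier results of these data known. All values were given for members past the threshold in the line comparison (the 12 largest) or in the test of both circular RNAs, and for the top member of each role; other lists name up to 4 genes past the threshold by size of change, and RB1, CDKN2A, CDKN1A and SAMHD1 in any case; some results are not reported here. CTF18, an older name of CHTF18, was not found under that symbol, and CCND2 did not pass the filter. Of the members, 12 share exon bases with another listed gene, 3 of them over 10% (CCNE2, TYMS and GINS3).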

Additional observations from a re-analysis of the deposited data

Results flagged for a closer look

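The effect of the circular RNAs differed between the lines for 2 members by a test of the difference itself. For POLD1, the catalytic subunit of the lagging strand polymerase, the effect was 0.71 higher in PC3 than in DU145 on the log2 scale (SE 0.14, edgeR adjusted p = 0.00248), with both PC3 circular RNA libraries above their controls and both DU145 ones below theirs. For TYMS, thymidylate synthase, it was 0.50 higher (SE 0.13, edgeR adjusted p = 0.0188), with both PC3 circular RNA libraries above their controls, while in DU145 the circ0003553 library was below its own control (283 against 337 CPM) and the circ0004592 library above its own (348 against 336 CPM). The TYMS call was lost in 6 of 14 alternatives, those without any single control or either PC3 circular RNA library. ENOSF1 and TYMSOS share 465 and 183 exon bases with TYMS on the opposite strand. ENOSF1 was at 86.4, 96.4, 81.8 and 97.9 CPM in PC3 and 207, 180, 203 and 206 CPM in DU145. TYMSOS was at 8.40, 12.1, 8.52 and 9.65 CPM in PC3 and 30.5, 25.1, 30.6 and 33.8 CPM in DU145. Both thus moved in the direction of TYMS in each arm, and their part in its count was not tested.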

How the results depend on the processing

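All 30 members lower in PC3 over 8 libraries, and all 32 between the controls, remained so in every alternative run, and no called member changed sign in any comparison. Scaling with DESeq2's size factors moved the median of all genes by at most 0.015 on the log2 scale. The circular RNA counts were less stable. With limma on RPKM, PC3 gave 2 members higher for both circular RNAs, 5 higher and 0 lower for circ0003553, and 2 higher and 0 lower for circ0004592; DU145 gave 0 lower for circ0003553, and 0 higher and 0 lower for circ0004592. DESeq2 gave 0 lower for either plasmid in PC3, 3 lower for circ0003553 and 0 lower for circ0004592 in DU145. With no filter, PC3 had 1 lower for both circular RNAs and 2 lower for circ0004592, and with a filter of 5 CPM also 2. For either single plasmid in DU145, limma passed no tested gene of any kind. The cause of these shifts was not tested.

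Leaving out each library in turn gave 0 to 10 members higher and 0 to 2 lower for both circular RNAs in PC3, 0 to 2 and 0 to 5 in DU145, 8 to 9 higher and 1 to 1 lower for circ0003553 in PC3, 4 to 7 and 0 to 3 for circ0004592 in PC3, 0 to 0 and 2 to 10 for circ0003553 in DU145, 1 to 6 and 0 to 1 for circ0004592 in DU145, and 1 to 10 and 0 to 2 for the difference between lines. Of the called members, 0 of 6 in PC3 for both circular RNAs, 5 of 10 for circ0003553 (MCM2, MCM3, MCM5, CLSPN, TYMS), 2 of 7 for circ0004592 (MCM5, TYMS), 0 of 7 and 0 of 6 in DU145, and POLD1 of the 2 with unlike effects passed in every alternative. A block for the arm, run for both circular RNAs in each line and for the difference between lines, moved none of those counts by over 1.5 times. SAMHD1, CCND3, CDKN2B, CCND1, CDKN1A, ATRIP, RAD9A, LIN52, TIPIN and BUB1 passed in PC3 in every alternative. Each circular RNA had 1 library per line, and the lowest count of any member was 71.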

Other observations

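Among the other genes of the pathway lists, those on chromosome 8 differed between the lines in another direction than the rest, a pattern chosen after its values were seen. Of 7 tested (DSCC1, E2F5, GINS4, MTBP, RECQL4, RRM2B and TONSL) 5 were higher and 1 lower in PC3, with a median of 0.76 on the log2 scale, while of 139 on other chromosomes 18 were higher and 100 lower, with a median of -0.70. Of all 625 tested genes of chromosome 8, 46.7% were higher and 40.6% lower, with a median of 0.19. The 2 members on chromosome 8, MCM4 and CCNE2, were both lower in PC3.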
